A study of Mus musculus with 8 samples.

Results

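Collagen, laminin and integrin genes were followed across 4 hormone states in 7438 cells, a mouse mammary cell line. Members were all genes whose symbol names a collagen chain (Col, a number, a, a number), a laminin chain (Lama, Lamb or Lamc) or an integrin subunit (Itga or Itgb). The symbols matched 76 of the 18194 genes that the array named: 42 collagen, 10 laminin, 16 integrin alpha and 8 integrin beta genes. Membership rests on names only, and each gene was then read from its probe set with the highest mean signal. Genes with neighbouring names that code for other proteins (Itgb1bp1, Itgb1bp2, Itgb2l, Itgb3bp and Itgbl1) were not counted.

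All groups came from the same engineered cells, which carry a glucocorticoid receptor fused to green fluorescent protein (GFP-GR) and an estrogen receptor fused to a cherry tag (Cherry-ER), both under a promoter that tetracycline represses. Every group, the untreated one included, spent 48 hours in 10% serum stripped with charcoal and dextran. All had tetracycline removed 24 hours before the hormones, a step that lifts the repression of both fusion receptors in the controls too. The level of the fusion receptors was not measured here. The 4 groups of 2 arrays each were untreated cells, cells given 100 nM dexamethasone (Dex, a synthetic glucocorticoid), cells given 100 nM estradiol (E2), and cells given both at those doses (Dex + E2), with hormone for 2 hours. The arrays of a group are numbered as replicates, but no label used here calls them separate cultures, so p-values then reflect only how far these arrays vary, which may be technical variation. For 2 arrays, E2 replicate 2 and Dex + E2 replicate 1, the description mentions receptor ChIP, whereas title and treatment match the groups used here; counts without each of those arrays are given below.

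Collagens are secreted triple helices that give the matrix its tensile strength (fibrillar types) or form the sheet of the basement membrane (type IV). Laminins are trimers of an alpha, a beta and a gamma chain that assemble on cell surfaces and organise the basement membrane on which mammary epithelium rests. Integrins are heterodimers of an alpha and a beta subunit that bind these proteins outside the cell and connect them to the actin or keratin cytoskeleton, and in the mammary gland this contact is known to affect polarity, survival and milk protein expression. Glucocorticoid is a long-known regulator of matrix genes in connective tissue, and both hormones act through receptors that bind DNA.

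None of the 76 genes passed the test in any comparison. The test was limma on log2 signals, with p-values adjusted by Benjamini-Hochberg over all 18194 genes and a call at adjusted p under 0.05. With Dex, 0 of 76 were called, where the background over all genes was 1.47%. With E2, 0 of 76 were called, against a background of 0.104%. With Dex + E2, 0 of 76 were called, against 1.46%. At an unadjusted p under 0.05 limma gave 5, 5 and 3 of the 76 genes, compared with 6.28%, 6.18% and 8.45% of all genes.

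The remaining comparisons gave the same count. For Dex + E2 against Dex, 0 of 76 were called (background 0.011%), and 0 reached an unadjusted p under 0.05, beside 4.67% of all genes. For Dex + E2 against E2, 0 of 76 were called (background 0.627%), with 11 at an unadjusted p under 0.05, which compares with 12.7% of all genes. For the Dex by E2 interaction, the Dex difference with E2 minus that without it, 0 of 76 were called (background 0.0055%), with 3 at an unadjusted p under 0.05, beside 5.52% of all genes. For the mean effect of Dex over both E2 states, 0 of 76 were called (background 2.22%), with 8 at an unadjusted p under 0.05, beside 11.3% of all genes. For the mean effect of E2 over both Dex states, 0 of 76 were called (background 0.192%), with 3 at an unadjusted p under 0.05, beside 4.67% of all genes. Other settings of the fit called between 0 and 3 of the 76, as given with the dependence on processing. Leaving out Dex + E2 replicate 1 gave 3 in Dex + E2 against E2 (3.95%, beside 4.72% of all genes) and 1 in the mean Dex effect (1.32%, beside 4.62%), and leaving out E2 replicate 2 gave 0 in all 8 comparisons.

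The differences were small. Their 95% intervals, like the p-values, reflect only how far these arrays vary. The differences were read from the probe set with the highest mean signal of each gene. A dimmer Col1a2 probe set that fell further is described below. The largest difference from untreated cells in any treated group was that of Itgb8, an integrin beta chain. It was -0.33 on the log2 scale in Dex + E2, a 1.26-fold difference. Of the 76 genes, 4 differed from untreated by more than 0.3 log2 units in some treated group, and 55 stayed under 0.2 in all 3. The like shares over all genes were not counted. The 95% intervals of all 76 genes lay within a 2-fold change in either direction in each of the 3 comparisons with untreated cells. They lay within 1.5-fold for 75 genes with Dex, 74 with E2 and 74 with Dex + E2, where 96.9%, 97.5% and 95.3% of all genes did so.

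The median difference of the 76 genes was -0.0247 with Dex, -0.0298 with E2 and 0.00896 with Dex + E2, beside 0.00411, -0.0114 and 0.008 over all genes. With Dex, 47 of the 76 (61.8%) lay below 0, beside 48.3% of all genes. With E2 it was 50 (65.8%, beside 54.2%), and with Dex + E2 it was 35 (46.1%, beside 47.2%). These comparisons share the untreated arrays and are set side by side only.

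**Figure D1:**
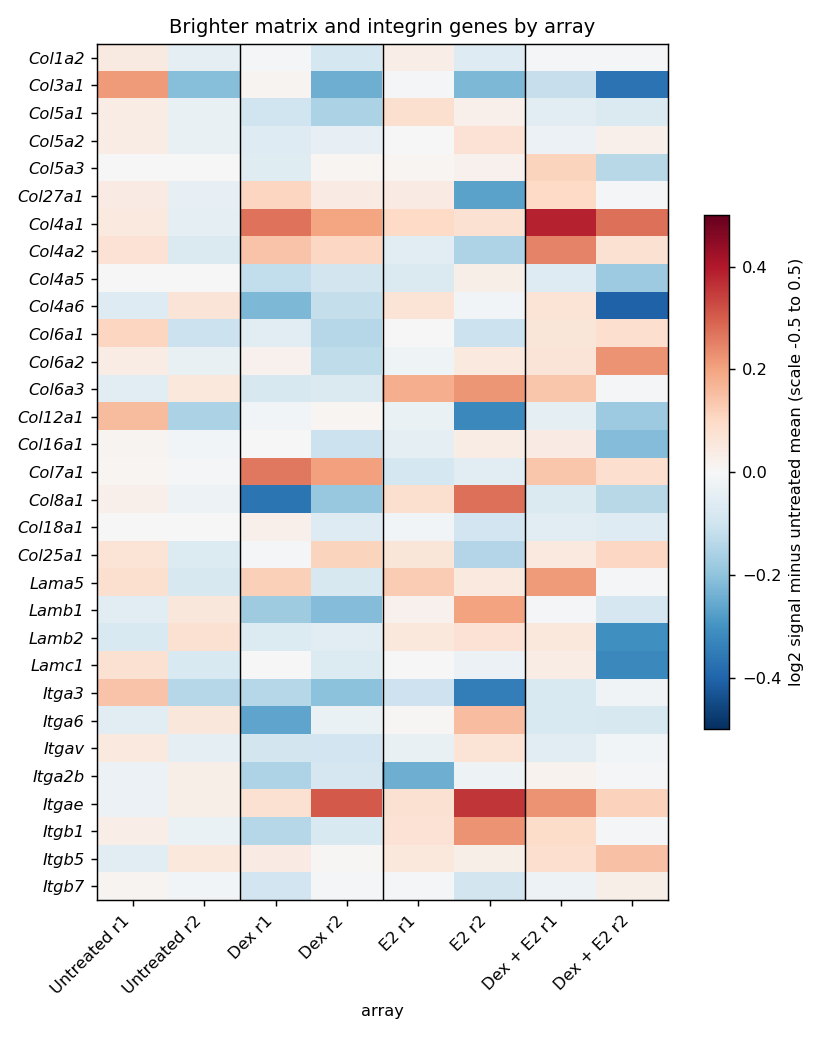
Signal of the 31 collagen, laminin and integrin genes whose probe set lies above the median signal of all genes, by array. Each cell is the log2 signal of 1 array (columns, grouped by treatment) minus the mean of both untreated arrays for that gene (rows), on a colour scale from -0.5 to 0.5. Most cells are pale. Some darker ones stand in 1 array of a pair only and others in both, as for Col7a1 and Col8a1 with Dex. In all 4 columns with Dex the Col4a1 and Col7a1 rows, among others, are red and the Col8a1 row is blue.

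The array's signals differ between probe sets for reasons other than the amount of RNA, so no gene's level was set against another's. Each gene was read from its probe set with the highest mean signal, and the median over all genes is used only to tell dim probe sets from brighter ones. By that mark 31 of the 76 genes were brighter and 12 lay below the 20th percentile. Robust multi-array averaging, by which the values were made, compresses changes of dim probe sets. Among the 31 brighter genes all 95% intervals against untreated lay within 1.5-fold for each of the 3 treatments. The like share over all brighter genes was not counted.

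The fibrillar collagens, which form the banded fibres of connective tissue, had 6 of their 11 genes above the median signal. Col1a2, the alpha 2 chain of type I collagen, read 14.01 and 13.92 in untreated cells, 13.96 and 13.88 with Dex, 14.00 and 13.91 with E2, and 13.96 in both arrays with Dex + E2. Its 4 groups overlapped, and its differences from untreated were -0.05, -0.01 and -0.01 with Dex, E2 and Dex + E2, each ± 0.0826 (SE). Its partner chain Col1a1 was read from a probe set at percentile 38.9, with 5.65 ± 0.0529 (SD, n = 2) in untreated cells and 5.79 ± 0.150 with Dex. These signals come from different probe sets and say nothing of the ratio of the chains.

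Col3a1, the chain of type III collagen, read 8.82 and 8.39 in untreated cells, 8.62 and 8.36 with Dex, 8.59 and 8.38 with E2, and 8.49 and 8.23 with Dex + E2. In every group its second replicate was the lower, and the groups overlapped. Col5a1, the alpha 1 chain of the type V collagen that nucleates thin fibrils, differed from untreated by -0.13 ± 0.0793 (SE) with Dex and by -0.06 ± 0.0793 with Dex + E2. Over the 11 fibrillar genes the Dex difference ran from -0.13 (Col5a1) to 0.14 (Col11a2), and the E2 difference from -0.32 (Col11a1) to 0.11 (Col2a1).

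Col11a1, a minor fibrillar chain of cartilage and one of the 4 genes past 0.3, read 4.11 and 4.04 in untreated cells, 4.02 and 3.93 with Dex, 3.78 and 3.73 with E2, and 3.99 and 4.29 with Dex + E2. The E2 arrays were the lowest and did not overlap the others, but the probe set is dim and the difference from untreated had an adjusted p of 0.594 by limma. It was picked out after its values were seen, as were all collagen, laminin and integrin genes named here beyond a set list of 25.

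Type IV collagen, the network of the basement membrane, had 4 of its 6 chains above the median signal. Col4a1, the most widespread chain, read 11.38 and 11.28 in untreated cells, 11.60 and 11.53 with Dex, 11.43 and 11.41 with E2, and 11.71 and 11.60 with Dex + E2. All 4 arrays with Dex lay above all 4 without it, and the E2 arrays lay above the untreated ones. The difference from untreated was 0.23 ± 0.0840 (SE) with Dex and 0.33 ± 0.0840 with Dex + E2, the latter with a 95% interval from 0.14 to 0.52 and an adjusted p of 0.132 by limma. Averaged over both E2 states the Dex difference was 0.24 ± 0.0594, with an adjusted p of 0.0912. A second Col4a1 probe set gave a mean Dex difference of 0.13 ± 0.0721.

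Col4a2 codes for the chain that joins Col4a1 in the common type IV trimer. It read 10.27 and 10.13 in untreated cells, 10.34 and 10.31 with Dex, 10.15 and 10.04 with E2, and 10.45 and 10.28 with Dex + E2. Its 4 Dex arrays also lay above the other 4, by a narrower margin, and its mean Dex difference was 0.20 ± 0.0664 (SE; adjusted p 0.265). In RefSeq's annotation of mouse assembly GRCm38.p6, Col4a1 and Col4a2 stand head to head on chromosome 8 and overlap by 84 bases.

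The other type IV chains did not share that pattern. Col4a5 and Col4a6, which lie head to head on the X chromosome, had mean Dex differences of -0.11 and -0.18. Col4a3 and Col4a4, another such pair, on chromosome 1, had 0.15 and 0.00. Among Col4a6 arrays, Dex + E2 replicate 1 read 7.29 and replicate 2 read 6.81, the widest gap within a group for that gene.

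Type VI collagen forms beaded filaments beside basement membranes, and 3 of its 5 chains were above the median signal. Col6a3 read 11.32 and 11.42 in untreated cells, 11.29 and 11.30 with Dex, 11.55 and 11.59 with E2, and 11.51 and 11.36 with Dex + E2. The E2 arrays were the highest. The mean E2 difference was 0.17 ± 0.0606 (SE), which had the smallest adjusted p of the 76 genes for that effect, 0.851. Col6a1 differed from untreated by -0.10, -0.06 and 0.07 with Dex, E2 and Dex + E2, each ± 0.0945.

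The fibril-associated collagens, which decorate fibrils, had 2 of 9 genes above the median signal, with Dex differences from -0.31 (Col9a1) to 0.08 (Col9a3). Col9a1, a cartilage collagen, read 6.13 and 6.23 in untreated cells, 5.98 and 5.76 with Dex, 5.92 and 6.07 with E2, and 5.82 and 6.48 with Dex + E2. Its Dex + E2 arrays were the second-lowest and the highest of all 8, a wider gap than any difference between its group means.

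Of 11 other collagens, 4 were above the median signal. Col7a1, the chain of the anchoring fibrils that tie basement membrane to stroma, read 7.04 and 7.02 in untreated cells, 7.29 and 7.23 with Dex, 6.94 and 6.97 with E2, and 7.17 and 7.11 with Dex + E2. The 4 arrays with Dex lay above the 4 without. Its Dex difference from untreated was 0.24 ± 0.0780 (SE; adjusted p 0.386, the smallest of the 76 for that comparison), and its mean Dex difference was 0.21 ± 0.0552 (adjusted p 0.114).

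Col8a1, a short-chain collagen of vessel walls and corneal membrane, went the other way. It read 9.45 and 9.40 in untreated cells, 9.06 and 9.23 with Dex, 9.51 and 9.70 with E2, and 9.35 and 9.29 with Dex + E2. The Dex arrays were the lowest and the E2 arrays the highest, with no overlap between arrays with and without Dex. The mean Dex difference was -0.28 ± 0.0685 (95% interval -0.43 to -0.13), and its adjusted p of 0.0821 was the smallest of the 76 genes in any comparison. Its second probe set gave -0.25 ± 0.0641 and its dimmest -0.12 ± 0.110.

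Col17a1, the transmembrane collagen of hemidesmosomes, was read from a probe set below the median and differed from untreated by at most 0.16 in size. Col15a1, a basement membrane collagen, also lay below the median and had a mean Dex difference of 0.24 ± 0.0948 (SE; adjusted p 0.371).

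**Figure D2:**
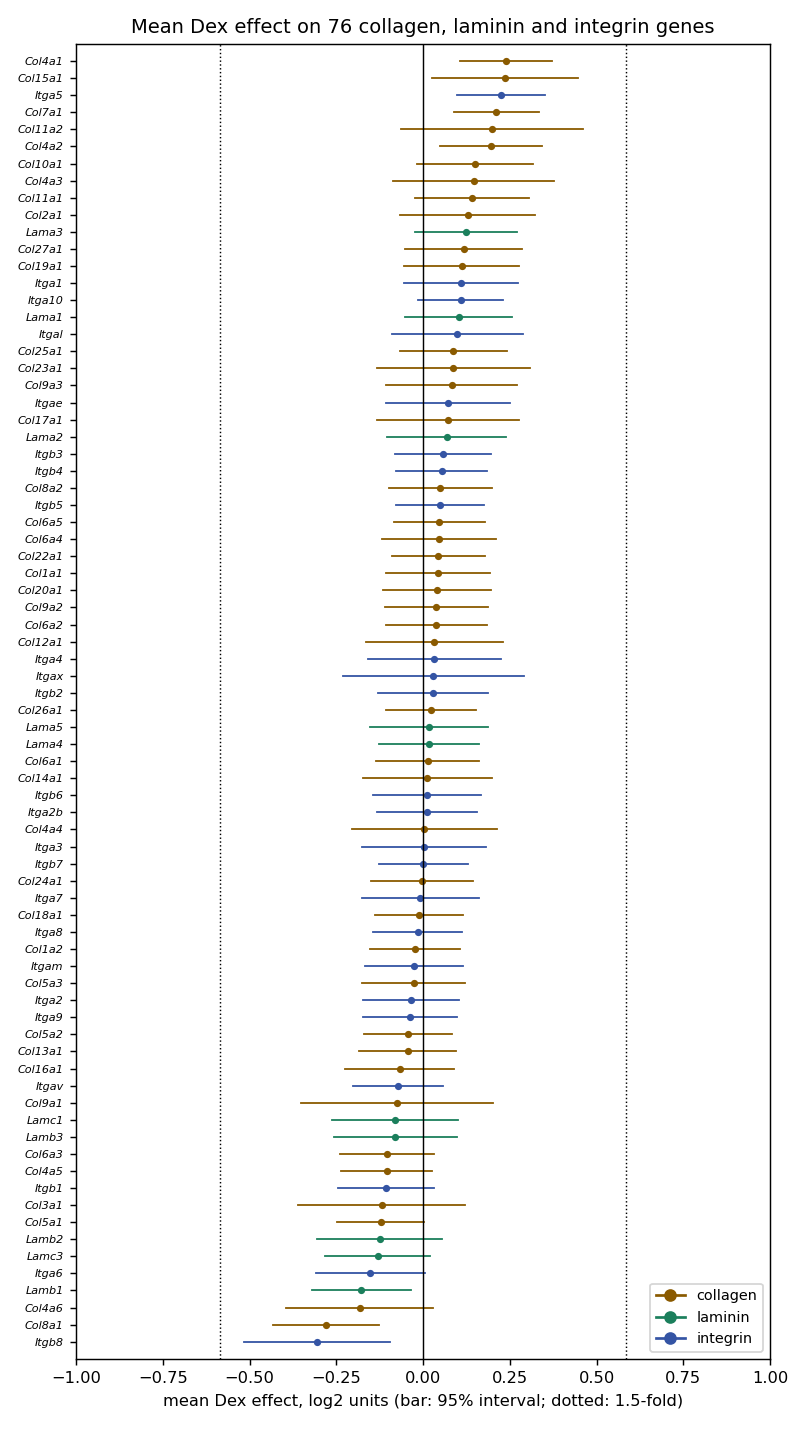
Mean Dex difference, averaged over cells without and with E2, for all 76 genes in order of size. Points are log2 differences and bars their 95% intervals from the limma fit; dotted lines mark 1.5-fold, and all 76 intervals lie between them. The largest negative value is that of Itgb8 (-0.31) and the largest positive that of Col4a1 (0.24).

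Of the laminin alpha chains, which carry the receptor-binding domains, only 1 of 5 was above the median signal. This was Lama5, the alpha chain of epithelial and vascular basement membranes, which differed from untreated by 0.02, 0.09 and 0.10 with Dex, E2 and Dex + E2, each ± 0.108 (SE). Lama3, the alpha chain of the laminin under hemidesmosomes, read 5.33 and 5.32 in untreated cells, 5.18 and 5.30 with Dex, 5.08 and 5.07 with E2, and 5.30 and 5.52 with Dex + E2. The E2 arrays lay lowest without overlapping the other groups, and the interaction was 0.42 ± 0.133 with an adjusted p of 0.852.

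Of the laminin beta and gamma chains, which form the rest of the coiled coil, 3 of 5 were above the median signal. Lamb1, the widespread beta chain, read 10.73 and 10.84 in untreated cells, 10.61 and 10.57 with Dex, 10.81 and 10.99 with E2, and 10.78 and 10.70 with Dex + E2. The Dex arrays were the lowest, and the Dex + E2 arrays lay within the range of the untreated arrays and just under it. The mean Dex difference was -0.18 ± 0.0643 (SE; adjusted p 0.304), and its other 3 probe sets gave -0.22, -0.25 and -0.28. Lamb3, the beta chain of the laminin under hemidesmosomes, was read just below the median signal and differed from untreated by -0.12, -0.16 and -0.20 with Dex, E2 and Dex + E2, each ± 0.113 (SE). Lamc1, the common gamma chain, differed by -0.03, -0.02 and -0.14, each ± 0.116. Mean Dex differences ran from -0.18 (Lamb1) to -0.08 (Lamc1) over the 5 beta and gamma chains and from 0.02 (Lama4) to 0.12 (Lama3) over the 5 alpha chains, where 44.4% of all genes lay below 0. Lama3 lay at -0.09 with Dex alone. None of these 10 passed the test. Over the array the sign of the mean Dex effect went with signal level. Of the 9097 genes above the median signal 5486 lay below 0, beside 8081 of all 18194. The alpha chains had 1 of 5 above the median and the beta and gamma chains 3 of 5. Whether signal level accounts for their split was not tested.

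The integrin alpha subunits are ordered here by what they bind. The collagen-binding Itga1, Itga2 and Itga10 were all below the median signal, and their differences from untreated stayed between -0.14 and 0.15. Among the laminin-binding subunits, Itga3 read 9.44 and 9.16 in untreated cells, 9.16 and 9.09 with Dex, 9.19 and 8.95 with E2, and 9.22 and 9.28 with Dex + E2. Untreated replicate 1 was the highest of these arrays, and untreated replicate 2 lay among the treated ones. Itga6, which pairs with Itgb4 in hemidesmosomes, differed from untreated by -0.15, 0.08 and -0.08 with Dex, E2 and Dex + E2, each ± 0.100 (SE).

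Among subunits that bind the RGD sequence, Itga5, the alpha chain of the main fibronectin receptor, read 6.50 and 6.48 in untreated cells, 6.68 and 6.57 with Dex, 6.36 and 6.35 with E2, and 6.64 and 6.69 with Dex + E2. The arrays with Dex lay above those without, and the E2 arrays were the lowest. The mean Dex difference was 0.22 ± 0.0572 (SE; adjusted p 0.101). The difference of Dex + E2 from E2 was 0.31 ± 0.0809, with an adjusted p of 0.182 that was the smallest of the 76 genes for that comparison. Its other 3 probe sets, all dimmer, gave mean Dex differences of 0.23, 0.10 and 0.07.

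Itgav, the alpha chain shared by the vitronectin receptors, read 11.52 and 11.42 in untreated cells, 11.38 and 11.37 with Dex, 11.43 and 11.54 with E2, and 11.41 and 11.45 with Dex + E2. Its differences from untreated were at most 0.09 in size. Itga8, a receptor chain of mesenchymal cells, had the smallest adjusted p of the 76 for E2 (0.550), with a difference of -0.27 ± 0.0812 on a dim probe set. Of 6 leukocyte and other alpha subunits, 1 was above the median signal, and none reached an unadjusted p under 0.05 against untreated.

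Of the 8 beta subunits, 3 were above the median signal. Itgb1, the partner of most matrix-binding alpha chains, read 10.08 and 10.01 in untreated cells, 9.90 and 9.97 with Dex, 10.12 and 10.27 with E2, and 10.14 and 10.04 with Dex + E2. The Dex arrays were the lowest and an E2 array the highest. The mean E2 difference was 0.15 ± 0.0622 (SE; adjusted p 0.993). Itgb5 differed from untreated by 0.02, 0.04 and 0.12, and Itgb3 by 0.06, -0.01 and 0.04, with Dex, E2 and Dex + E2. The hemidesmosome chain Itgb4 and the epithelial chain Itgb6 lay below the median and differed by at most 0.06 in size.

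Itgb8, an activator of latent transforming growth factor beta when paired with Itgav, read 4.83 and 4.96 in untreated cells, 4.61 and 4.80 with Dex, 4.79 and 5.17 with E2, and 4.69 and 4.44 with Dex + E2. Both Dex + E2 arrays lay below all arrays without Dex, whereas Dex replicate 2 lay just above the lower E2 array. The mean Dex difference was -0.31 ± 0.0953 (SE; adjusted p 0.208), on a probe set at percentile 23.2.

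Separation of arrays was counted as well. In 7 of the 76 genes (9.21%) the 4 arrays with Dex did not overlap the 4 without it, beside 6.74% of all genes. Col4a1, Col4a2, Col7a1, Itga5 and Itga10 were higher with Dex (6.58% against a background of 3.34%), and Col5a1 and Col8a1 were lower (2.63% against 3.4%). The 7 genes were named for their separation, and no test was made of these shares. For E2, 0 of 76 genes separated the 4 arrays with from the 4 without, beside 2.55% of all genes. Against the untreated pair alone, the Dex pair did not overlap in 34.2% of the 76 and 34.7% of all genes, the E2 pair in 27.6% and 36.1%, and the Dex + E2 pair in 31.6% and 32.6%. By direction, the Dex pair lay higher in 10.5% of the 76 (17.9% of all genes) and lower in 23.7% (16.8%). The E2 pair lay higher in 9.21% (16.6%) and lower in 18.4% (19.5%). The Dex + E2 pair lay higher in 21.1% (17.3%) and lower in 10.5% (15.3%).

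**Figure D3:**
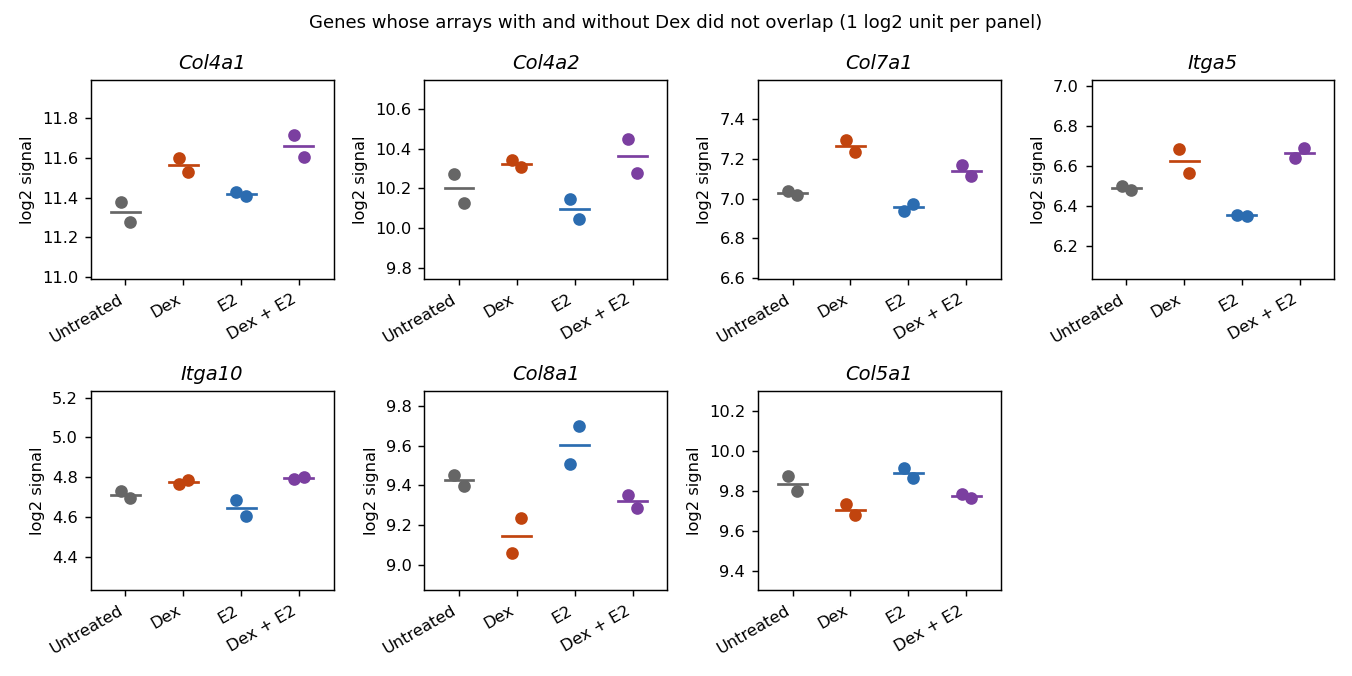
The 7 genes whose arrays with Dex did not overlap those without. Points are log2 signals of single arrays in the 4 groups and horizontal bars are group means; each panel spans 1 log2 unit around its own level. Col4a1 runs from 11.28 to 11.71, and Col8a1 is lowest with Dex (9.06 and 9.23) and highest with E2 (9.51 and 9.70).

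Upstream sequence was available from RefSeq (GRCm38.p6) for 55 of the 76 genes. The 250 bases before the start of 5 genes are shown. Of these, 4 separated the Dex arrays, and Col1a2 holds the only probe set of the 76 genes called when every probe set was tested alone. Windows of Col4a1, Col4a2 and Itga10, which also separated the Dex arrays, were available and are not shown. Capitals mark GGGCGG and CCAAT on either strand, elements of many promoters, both picked after the sequences were seen. Col1a2 lies at chr6:4505368-4505617 (plus strand), Col5a1 at chr2:27886175-27886424 (plus), Col7a1 at chr9:108953336-108953585 (plus), Col8a1 at chr16:57754738-57754987 (minus) and Itga5 at chr15:103366792-103367041 (minus).
Col1a2: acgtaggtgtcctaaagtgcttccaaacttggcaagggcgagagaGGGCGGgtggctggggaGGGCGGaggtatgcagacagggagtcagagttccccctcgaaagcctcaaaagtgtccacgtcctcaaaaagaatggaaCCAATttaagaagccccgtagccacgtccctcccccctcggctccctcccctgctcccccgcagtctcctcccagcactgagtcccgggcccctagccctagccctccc
Col5a1: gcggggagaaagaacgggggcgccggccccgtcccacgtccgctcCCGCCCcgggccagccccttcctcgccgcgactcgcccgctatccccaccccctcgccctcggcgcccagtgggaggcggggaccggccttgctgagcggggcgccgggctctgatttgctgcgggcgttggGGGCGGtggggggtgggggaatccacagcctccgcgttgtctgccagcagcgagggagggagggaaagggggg
Col7a1: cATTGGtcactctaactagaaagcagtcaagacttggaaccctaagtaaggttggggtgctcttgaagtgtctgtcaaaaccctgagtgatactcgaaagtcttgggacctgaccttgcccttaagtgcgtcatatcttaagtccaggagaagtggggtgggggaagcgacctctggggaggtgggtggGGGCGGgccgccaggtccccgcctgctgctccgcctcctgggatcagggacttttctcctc
Col8a1: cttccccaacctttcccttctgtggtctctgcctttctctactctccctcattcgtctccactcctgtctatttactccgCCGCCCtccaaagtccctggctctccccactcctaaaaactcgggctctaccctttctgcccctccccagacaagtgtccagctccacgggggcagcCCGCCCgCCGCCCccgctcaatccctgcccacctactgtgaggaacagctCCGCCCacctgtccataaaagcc
Itga5: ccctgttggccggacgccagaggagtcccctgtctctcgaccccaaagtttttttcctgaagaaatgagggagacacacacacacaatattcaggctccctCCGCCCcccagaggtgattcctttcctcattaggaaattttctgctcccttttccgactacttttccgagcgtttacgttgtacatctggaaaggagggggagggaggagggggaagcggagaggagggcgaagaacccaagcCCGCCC
None of these 5 windows held AGAACA followed after 3 free bases by TGTTCT (the full element of the glucocorticoid receptor), its first arm AGAACA alone, GGTCA followed after 3 free bases by TGACC (the full element of the estrogen receptor) or TGANTCA (the AP-1 element), on either strand. Col8a1 held GGGCGG 4 times and Col7a1 held it 1 time, and Col1a2 and Col7a1 each held CCAAT 1 time.

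Over all 55 genes with a window, 0 held the full glucocorticoid element, 7 (12.7%) held AGAACA, 0 held the full estrogen element and 2 (3.64%) held TGANTCA. Over 27025 genes the shares were 0.0111%, 18.2%, 0.0666% and 7.82%. GGGCGG stood in 50.9% of the 55 and 35.4% of all genes, and CCAAT in 30.9% and 37.5%. These are matches of letters in a short window, and they say nothing of binding at other distances.

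The 76 genes have 155 probe sets in all, and 47 genes have more than 1. Tested one by one among 34958 probe sets, a single one of the 155 passed with Dex, the dimmest of 3 for Col1a2, which fell. That is 0.645% of them, beside 1.14% of all probe sets called in either direction and 0.426% called lower. It read 5.34 and 5.44 in untreated cells, 4.50 and 4.68 with Dex, 5.14 and 4.83 with E2, and 4.44 and 4.17 with Dex + E2. All 4 arrays with Dex lay below all 4 without.

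This Col1a2 probe set fell by 0.80 ± 0.130 (SE) with Dex, to 0.575 of the untreated signal (adjusted p 0.0135 by limma over all probe sets). It fell by 1.08 ± 0.130 with Dex + E2, to 0.472 of untreated (adjusted p 0.00200), where it was again the only one of the 155 called, beside 1.06% of all probe sets in either direction and 0.469% called lower. The mean Dex difference was -0.74 ± 0.0921 (adjusted p 0.00170), beside 1.69% of all probe sets called in either direction and 0.85% called lower. With E2 alone it read -0.40 ± 0.130 (adjusted p 0.682), and the interaction was 0.12 ± 0.184 (adjusted p 0.945). Under 11 further settings, chosen after seeing the data, the Dex + E2 and mean Dex calls held in all 11. The call with Dex held in 7; it was lost, at adjusted p between 0.0600 and 0.206, when either untreated array or either Dex array was left out.

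The brighter Col1a2 probe sets did not share that difference. The brightest differed from untreated by -0.05 ± 0.0857 (SE) with Dex and -0.01 ± 0.0857 with Dex + E2. The second differed by -0.10 ± 0.0856 and -0.06 ± 0.0856. The probe sets of this gene therefore disagree, and where each lies in the transcript was not determined. Of the 79 probe sets not used to represent a gene, this was the only one to differ from untreated by more than 0.5 in a treated group.

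**Figure D4:**
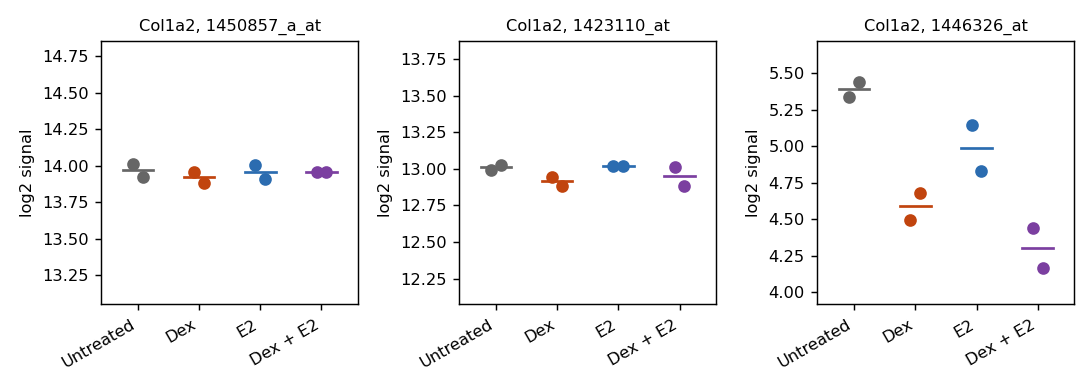
The 3 Col1a2 probe sets by array. Each panel plots the log2 signal of single arrays in the 4 groups, with group means as bars. The dimmest falls from 5.34 and 5.44 in untreated cells to 4.44 and 4.17 with Dex + E2, while the brighter ones stay between 13.88 and 14.01 and between 12.88 and 13.03 over all 8 arrays.

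Other genes of matrix and adhesion were counted from 5 lists, beside the 1.47% of all genes called with Dex and 1.46% with Dex + E2. Among 18 matrix glycoproteins and proteoglycans measured, 1 rose and 1 fell with Dex. Ccn2, a matricellular growth factor partner, read 8.97 and 9.15 in untreated cells, 11.83 and 11.31 with Dex, 9.66 and 9.38 with E2, and 11.66 and 10.64 with Dex + E2. It rose by 2.51 ± 0.273 (SE) with Dex (adjusted p 0.000718) and by 2.09 ± 0.273 with Dex + E2 (adjusted p 0.00296, or 0.0562 without untreated replicate 1). Thbs1, thrombospondin 1, fell by 1.51 ± 0.118 with Dex (adjusted p 9.46e-05) and by 1.21 ± 0.118 with Dex + E2 (adjusted p 0.000438).

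Of 15 genes of collagen processing and crosslinking, 1 passed with Dex: Loxl3, a lysyl oxidase, rose by 0.86 ± 0.149 (SE; adjusted p 0.0159). That call was lost without either untreated array (adjusted p 0.172 and 0.129) or without Dex replicate 1 (0.182), and with Dex + E2 its difference was 0.49 ± 0.149 (adjusted p 0.276). Of 19 integrin adaptors and focal adhesion genes, 1 passed: Tns1, a tensin that binds integrin tails, rose by 0.66 ± 0.0984 with Dex (adjusted p 0.00619) and by 0.82 ± 0.0984 with Dex + E2 (adjusted p 0.00161). Its Dex call was lost without either untreated array (adjusted p 0.0845 and 0.0583) or without Dex replicate 1 (0.0980). In the mean Dex effect a second gene of this list, the adaptor Pxn (paxillin), rose by 0.27 ± 0.0540 (adjusted p 0.0289), a call lost when any array other than Dex + E2 replicate 1 was left out (adjusted p 0.0521 to 0.149) and with averaged probe sets (0.256).

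Of 10 other matrix receptors and hemidesmosome genes, 1 passed with Dex + E2: Sdc4, a heparan sulfate proteoglycan of focal adhesions, rose by 0.41 ± 0.0852 (SE; adjusted p 0.0487). Leaving out any single array ended that call, at adjusted p from 0.0658 to 0.284, and so did the replicate block (0.0832) and centring of the arrays (0.0577). Of 14 matrix metalloproteinases and their inhibitors, 0 passed, and with E2 alone 0 passed in any of the 5 lists.

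**Figure D5:**
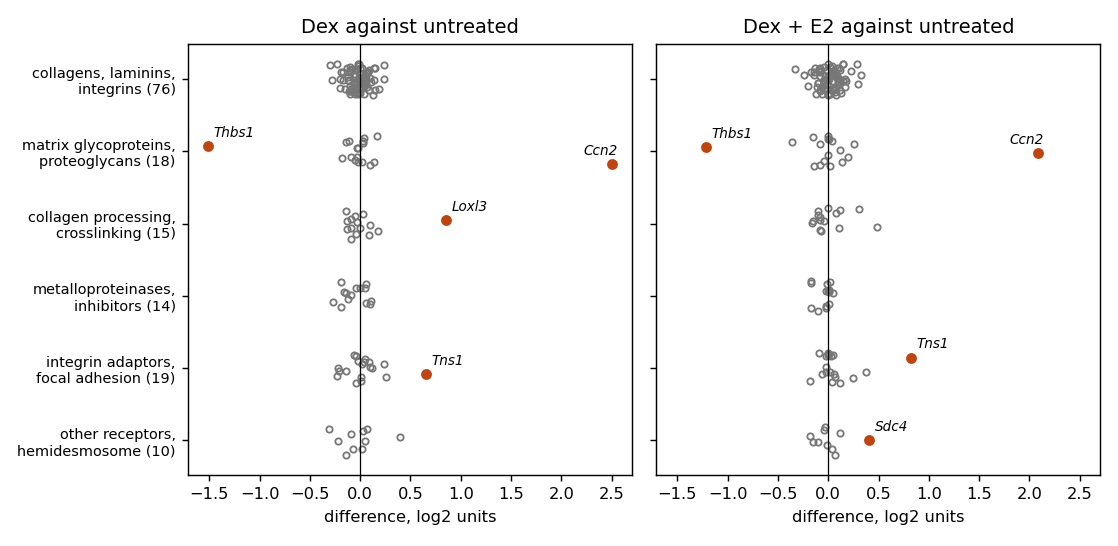
Differences from untreated with Dex and with Dex + E2 for the 76 collagen, laminin and integrin genes beside the 5 other matrix and adhesion lists. Each point is a gene, the horizontal axis is the log2 difference and filled points have an adjusted p under 0.05. Each gene is read from its probe set with the highest mean signal. So read, the 76 genes lie between -0.33 and 0.33, whereas Ccn2 (2.51 with Dex) and Thbs1 (-1.51) stand far outside that range.

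The hormone response was present in these arrays. Fkbp5, a glucocorticoid receptor target, rose by 1.62 ± 0.111 (SE) with Dex (adjusted p 3.91e-05) and by 1.30 ± 0.111 with Dex + E2 (adjusted p 0.000209), and Per1 rose by 2.66 ± 0.127 with Dex (adjusted p 4.80e-06) and by 1.97 ± 0.127 with E2 (adjusted p 0.000267). The probe sets of the receptor genes differed from untreated by -0.47 with Dex for Nr3c1 (adjusted p 0.114) and by -0.08 with E2 for Esr1 (adjusted p 0.963). Nr3c1 fell by 0.46 ± 0.0833 in the mean Dex effect (adjusted p 0.0149), a call lost with averaged probe sets (0.0804) and without either untreated array, Dex replicate 1 or E2 replicate 2 (0.0624 to 0.105). Replicate arrays correlated at 0.9969 to 0.9986 over all genes. Dex + E2 had the widest replicate spread, with 390 genes more than 0.5 log2 units apart beside 19 to 95 in the other groups.

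The labelled mammary cell type was set against marker lists. Of 12 luminal epithelial markers 2 lay above the median signal, and Cdh1, Esrp1 and Krt18 lay below the 20th percentile, as did Ptprc among 7 immune markers. Of 10 fibroblast or mesenchymal markers Fap and Lum lay below the 20th percentile and 6 lay above the median, with Vim at percentile 99.9. Of 8 basal markers 2 did, of 7 immune markers 1, and of 6 endothelial and 4 adipocyte markers 0. The probe set of the defining epithelial marker Cdh1 lay at percentile 2.1. A percentile places the signal of a probe set, which can be dim for reasons other than little RNA.

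The summed linear signal of the mesenchymal list ran from 32117 to 33042 in untreated arrays, 30958 to 32187 with Dex, 32817 to 33100 with E2 and 31177 to 33052 with Dex + E2, and that of the luminal list from 675.9 to 734.2, 708.4 to 775.8, 651.2 to 662.8 and 693.4 to 723.7. The adipocyte list summed to 127.1 to 151.0 in untreated arrays and 97.3 to 102.1 with Dex. It summed to 105.7 to 133.6 with E2 and 96.0 to 108.9 with Dex + E2. In that sum the arrays with Dex lay below the untreated ones, but the genes did not all follow. Of the 4, 3 lay below 0 with Dex, 1 with Dex + E2 and 2 in the mean Dex effect. The list's Adipoq and Cidec lay below the 20th percentile. Within it Pparg, a nuclear receptor of fat cells, fell by 0.71 ± 0.140 (SE) in the mean Dex effect (adjusted p 0.0264; 0.0593 to 0.138 without untreated replicate 1, either Dex array, E2 replicate 1 or Dex + E2 replicate 2). Twist1, a mesenchymal transcription factor, was the 1 marker called against untreated, with a fall of 0.47 ± 0.0862 (SE) in Dex + E2 (adjusted p 0.0227, over 0.05 without either untreated array, either Dex array or Dex + E2 replicate 2). Of the 10 mesenchymal markers, 6 lay below 0 and 4 above in the mean Dex effect, with a median of -0.0514. Over all genes 44.4% lay below 0. The 2 markers called in that effect were Twist1, which fell by 0.32 ± 0.0609 (adjusted p 0.0216 by limma), and Pdgfrb. The latter, a receptor of mesenchymal cells, fell by 0.35 ± 0.0670 (adjusted p 0.0218 by limma). The Twist1 call was lost when any array other than Dex + E2 replicate 1 was left out (0.0558 to 0.116), and that of Pdgfrb when any untreated, Dex or E2 array was (0.0537 to 0.111). In such bulk samples fewer cells of a type and less RNA per cell cannot be told apart, and the part of these markers in the values above was not tested.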

How the data were processed

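RNA from 8 samples was hybridised to an Affymetrix mouse array. The deposited values are log2 signals of 45101 probe sets, made with RMA in Affymetrix Expression Console, per the submitters' processing notes; no version is given. RMA removes background, equalises the arrays and combines probes. Groups came from titles and treatments.

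The platform annotation gave 34958 probe sets 1 symbol and 932 several, and did not list 9211; only the first were used. 34754 of them matched RefSeq by Entrez number, with 0 symbols changed. Each gene took its probe set with the highest mean. The 4 group means were fitted with limma 3.58.1 in R 4.3.3 (4 residual and 6.2 prior degrees of freedom; Benjamini-Hochberg over 18194 genes), after the fit was tested on simulated data. Values after ± are SE for differences and SD for levels. Precision is limited by the number of arrays: the median SE of a difference between 2 groups was 0.0964.

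The members and lists were chosen with earlier results of these data known, and the textbook classes were written with the values at hand. Named were members past the threshold or at least 0.5 from untreated (0 of each) and a set list, with up to 4 called genes of each other list; further members, called markers and the added mean Dex calls were named after their values were seen. Listed genes without a named probe set (such as Fbn1 and Ptk2) were not analysed here. Alternatives were averaging the probe sets of a gene, every probe set alone, a trended and robust prior, only genes above the median level, median centring, the replicate number as a block, only the arrays compared and leaving out each array.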

Additional observations from a re-analysis of the deposited data

How the results depend on the processing

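The count of the 76 genes called was 0 in every comparison and kept that value in 107 of 117 combinations of comparison and setting; in 10 it rose, and the cause was not tested. With every probe set tested alone it was 1 with Dex, 1 with Dex + E2 against untreated and 1 for the mean Dex effect. Each time this was the dim Col1a2 probe set, which also enters the averaged Col1a2 values given next. With the probe sets of a gene averaged the count was 1 for Dex + E2 against untreated (Col1a2, -0.39, adjusted p 0.0497 by limma, 1.32% of the 76, beside 1.3% of all genes). For the mean Dex effect it was also 1 (Col1a2, -0.28, adjusted p 0.0299 by limma, beside 2.01% of all genes). With a trended and robust prior it was 1 for Dex + E2 against untreated (Col4a1, adjusted p 0.0236; beside 1.68% of all genes) and 2 for the mean Dex effect (Col4a1, adjusted p 0.0146, and Col8a1, 0.0404; 2.63%, beside 2.42%). With only genes above the median level, which adjusts over fewer genes, it was 3 of the 31 then tested for the mean Dex effect (Col4a1, adjusted p 0.0344, Col7a1, 0.0395, and Col8a1, 0.0367; 9.68%, beside 4.78% of the 9097 genes tested). Leaving out 1 array gave 0 to 3 for Dex + E2 against E2 and 0 to 1 for the mean Dex effect, and 0 in the other 6 comparisons. Both higher counts came without Dex + E2 replicate 1, with Col11a1 (0.53, adjusted p 0.0215), Lama3 (0.44, adjusted p 0.0385) and Col4a6 (-0.43, adjusted p 0.0494) in the first and Col4a6 (-0.30, adjusted p 0.0372) in the second; a group of 1 array is then assumed to vary like the others.

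With the replicate number as a block the count was 0 in all 8 comparisons. Deviations of same-numbered arrays correlated at 0.19, 0.347 and 0.267 among untreated, Dex and E2, and at -0.26, -0.0705 and -0.164 between each of these and Dex + E2, so the numbers were not taken to pair the samples. Centring each array on its median moved the median of all genes by -0.0148 to 0.00973 and turned the sign of at most 6 of the 76 genes in a comparison, none of them called. With 2 arrays a group, differences under about 0.2 log2 units lie within the 95% interval of a typical gene.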
